A study of Mus musculus with 12 samples.

Results

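The 10 genes described here move calcium across the membrane of the endoplasmic reticulum or across the cell surface. They are the reticulum pumps Atp2a1, Atp2a2 and Atp2a3, the plasma membrane pumps Atp2b1 and Atp2b4, the inositol trisphosphate (IP3) receptors Itpr1, Itpr2 and Itpr3, the store sensor Stim1 and the entry channel Orai1. Stim1 and Orai1 serve refilling of the store rather than release from it. The genes were chosen by symbol among 17103 genes, with their readings on all 12 arrays already known, so every difference between groups given for them is a description of these arrays with its error and carries no test. All 10 were found, each with 1 probe set, the unit into which the array summarises the probes of a transcript.

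Pumps of the SERCA family (Atp2a genes) spend ATP to load calcium into the endoplasmic reticulum, and pumps of the PMCA family (Atp2b genes) expel it from the cell. IP3 receptors let calcium out of the store when phospholipase C has made IP3 at the plasma membrane. As the store empties, Stim1 in its membrane senses the loss and opens Orai1 in the plasma membrane, a route called store-operated entry that is known in neural progenitors as well as in blood cells and fibroblasts.

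Affymetrix Mouse Gene 1.0 ST arrays were hybridised with RNA from 4 groups of mouse cells, 3 arrays each. The groups are induced neural stem cells in 2 sets, named iNSC1 and iNSC2 here (replicates 1, 2 and 3 of each), wild-type neural stem cells, named NSC (replicates 1, 2 and 3), and wild-type embryonic fibroblasts, named MEF (replicates 1, 3 and 5). Cells of both iNSC sets and of NSC grew in neural stem cell medium that held EGF at 20 ng/ml, FGF-2 at 20 ng/ml and heparin at 2 μg/ml, whereas MEF grew in DMEM containing 10% serum, so medium and cell type cannot be told apart against MEF. The factors used for induction, the mouse strain and age, and what sets iNSC1 apart from iNSC2 are left unsaid by the labels, which also do not state that the 3 arrays of a group come from separate cultures, so the errors measure the spread between arrays, which may be technical. Values are log2 RMA readings, which can be compared between arrays for a gene but not between genes. With no detection call in the files, a reading near the array medians (4.31 to 4.44 over all probe sets) can be background. In RNA from whole cultures, fewer cells of a type and less RNA per cell cannot be told apart.

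The labels were set against marker genes. Sox2, a factor of neural stem cells, averaged 4.56 in iNSC1, 4.42 in iNSC2, 4.58 in NSC, against 4.50 in MEF, near the array medians in all groups, and none of 12 neural stem cell markers met the call rule between iNSC and MEF (limma, 0 higher and 0 lower, with 6 higher at an unadjusted p under 0.05). Between NSC and MEF 3 of the 12 were called higher and 0 lower (0 lower at an unadjusted p under 0.05): Pax6 (1.16), Sox1 (1.02) and Olig2 (1.11), factors of neural progenitors. Pax6 averaged 4.93 in NSC against 3.77 in MEF, Olig2 4.59 against 3.48, and Sox1 7.99 against 6.96. The MEF means of Pax6 and Olig2 lie below the array medians, and the NSC mean of Olig2 is near them. Nes, another of the 12, averaged 5.45 in iNSC1, 6.01 in iNSC2, 4.79 in NSC, against 5.15 in MEF. It was thus lower in NSC than in MEF, by a difference of -0.36 that was not called. The mean of the 12 was 4.81 to 4.89 on the iNSC arrays, 4.86 to 4.94 on the NSC arrays, against 4.44 to 4.55 on the MEF arrays, with no overlap with MEF. Pou5f1, a factor of pluripotent cells, averaged 12.98, 13.01, 12.89 and 3.54 in the same order of groups, and Col1a1, a fibrillar collagen chain of fibroblasts, 5.80, 5.75, 5.60 and 12.25. Thy1, from the fibroblast marker list, averaged 6.16, 6.19, 5.50 and 11.01. These markers do not plainly bear out the label NSC. Sox2 lay near the array medians in NSC and Nes below MEF, although 3 of the 12 markers were called higher. Pou5f1, at 12.89, was about as high in NSC as in the iNSC sets. Why was not tested. The names iNSC and NSC are used as the labels give them.

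Among the SERCA pumps, Atp2a3 was far higher in the iNSC and NSC arrays than in MEF, Atp2a2 was somewhat lower in iNSC, and Atp2a1 did not separate the groups. Atp2a3 encodes SERCA3, a pump known from platelets, lymphocytes, endothelium and some epithelia. Its position is chromosome 11, 72774730 to 72806546 on the plus strand, taken like the other positions from the authors' deposited table, which names no genome build. It read 10.44, 10.47 and 10.42 in the iNSC1 arrays, 10.36, 10.42 and 10.32 in the iNSC2 arrays, 9.78, 9.72 and 9.66 in the NSC arrays, against 4.49, 4.16 and 4.41 in the MEF arrays. All 6 iNSC arrays lay above all NSC arrays, and these above all MEF arrays, whose readings are close to the array medians. The mean of the iNSC sets exceeded MEF by 6.05 ± 0.072 (SE, n = 6 and 3 arrays; 95% confidence interval 5.90 to 6.21), a ratio of readings of 66.4, and NSC exceeded MEF by 5.37 ± 0.083 (a ratio of 41.4). Because the MEF readings can be background, these are ratios of readings and may be lower bounds of the difference in RNA. Between iNSC and NSC the difference was 0.684 ± 0.072 (1.61-fold; 0.53 to 0.84), less than 2-fold but with no array overlapping.

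Atp2a3 is the only pump of the 10 with such a step, so the sequence before its start is shown, together with that of Atp2b1, the other pump that was higher in iNSC and NSC than in MEF. The windows hold the 250 bases upstream of the RefSeq start in GRCm38.p6, and matches to the GC box, spelled GGGCGG, or the TATA box, spelled TATAAA, or the box spelled CCAAT, or the octamer spelled ATGCAAAT, each searched on either strand, are in capitals. Atp2a3 lies at chr11:72960919-72961168, plus strand, and Atp2b1 at chr10:98914392-98914641, plus strand, the first of 2 starts listed for it.
Atp2a3: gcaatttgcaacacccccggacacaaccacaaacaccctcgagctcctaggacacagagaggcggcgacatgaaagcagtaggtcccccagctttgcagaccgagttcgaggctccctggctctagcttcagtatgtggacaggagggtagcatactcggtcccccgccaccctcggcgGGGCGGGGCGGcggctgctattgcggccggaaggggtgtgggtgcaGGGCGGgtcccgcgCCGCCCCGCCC
Atp2b1: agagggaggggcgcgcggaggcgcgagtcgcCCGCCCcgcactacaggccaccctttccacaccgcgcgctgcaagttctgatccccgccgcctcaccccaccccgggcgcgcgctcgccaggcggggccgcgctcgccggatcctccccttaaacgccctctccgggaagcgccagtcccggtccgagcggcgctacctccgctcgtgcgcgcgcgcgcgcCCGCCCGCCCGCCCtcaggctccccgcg
The Atp2a3 window held 5 GC box matches, some of them overlapping, and 20 CpG pairs, and the Atp2b1 window 4 matches and 43 CpG pairs, against a median of 6 CpG pairs over 32851 RefSeq windows. Of those windows 32.7% held a GC box. Neither window held the TATA box, the CCAAT box or the octamer, which occurred in 12.4%, 33.8% and 1.6% of all windows. A match describes the letters of the window and shows no binding.

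Atp2a2 encodes SERCA2, the pump found in nearly all cells and the form used in the heart (chromosome 5 from 122892711 to 122952183, minus strand). It read 8.302, 8.35 and 8.44 in iNSC1, 8.67, 8.58 and 8.37 in iNSC2, 9.03, 8.70 and 8.59 in NSC, against 9.25, 9.19 and 8.69 in MEF. No iNSC array reached the lowest MEF array, while NSC arrays overlapped with iNSC2 and with MEF. The difference was -0.593 ± 0.12 for iNSC minus MEF, -0.32 ± 0.12 for iNSC minus NSC and -0.273 ± 0.14 for NSC minus MEF, the last with an interval of -0.56 to 0.011 that includes 0. Without NSC replicate 1 the iNSC minus NSC difference was -0.191, and the NSC minus MEF difference was -0.18 without NSC replicate 3, -0.17 without MEF replicate 1 and -0.45 without MEF replicate 5. Atp2a1, the SERCA1 pump of fast skeletal muscle (chromosome 7 from 133589374 to 133606618, minus strand), read between 4.16 and 4.77 on all arrays, near the array medians. Its group means spanned 0.189, and its iNSC minus MEF difference was 0.034 (-0.22 to 0.29). Skeletal muscle markers averaged 4.31 to 4.52 over 14 genes in the iNSC arrays, 4.31 to 4.35 in NSC, against 4.34 to 4.50 in MEF, with 0 called higher in limma (3 at an unadjusted p under 0.05) and 1 lower in iNSC than in MEF, Acta1, the skeletal muscle actin.

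The plasma membrane pumps moved in different ways: Atp2b1 was higher in iNSC and NSC than in MEF, while Atp2b4 was lowest in NSC. Atp2b1 encodes PMCA1, a pump made by most cells (chromosome 10 from 98377804 to 98486426, plus strand). It read 6.08, 6.26 and 6.33 in iNSC1, 6.73, 6.53 and 6.22 in iNSC2, 7.04, 6.56 and 6.37 in NSC, against 5.02, 4.97 and 5.23 in MEF. Every iNSC and NSC array lay above every MEF array, and the iNSC2 and NSC arrays overlapped. The difference was 1.29 ± 0.14 for iNSC minus MEF (2.44-fold), 1.58 ± 0.16 for NSC minus MEF (2.99-fold) and -0.296 ± 0.14 for iNSC minus NSC (-0.58 to -0.009). The last was -0.105 without NSC replicate 1 and -0.439 without NSC replicate 3.

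Atp2b4 encodes PMCA4, which is known in sperm, red cells and smooth muscle and takes part in local calcium signalling (chromosome 1 from 135603223 to 135649858, minus strand). It read 4.89, 5.01 and 4.96 in iNSC1, 5.79, 5.49 and 5.54 in iNSC2, 4.05, 3.93 and 4.28 in NSC, against 5.77, 5.63 and 5.11 in MEF. The NSC arrays, all below the array medians, stood under every other array, the iNSC1 arrays lay between them and MEF, and iNSC2 overlapped MEF. The iNSC mean exceeded NSC by 1.19 ± 0.13 (a ratio of readings of 2.29; 0.92 to 1.47), which may be a lower bound since the NSC readings can be background, and NSC fell short of MEF with a difference of -1.42 ± 0.15. For iNSC minus MEF the difference was -0.224 ± 0.13 (-0.504 to 0.055), made of -0.552 for iNSC1 and 0.103 for iNSC2.

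**Figure D1:**
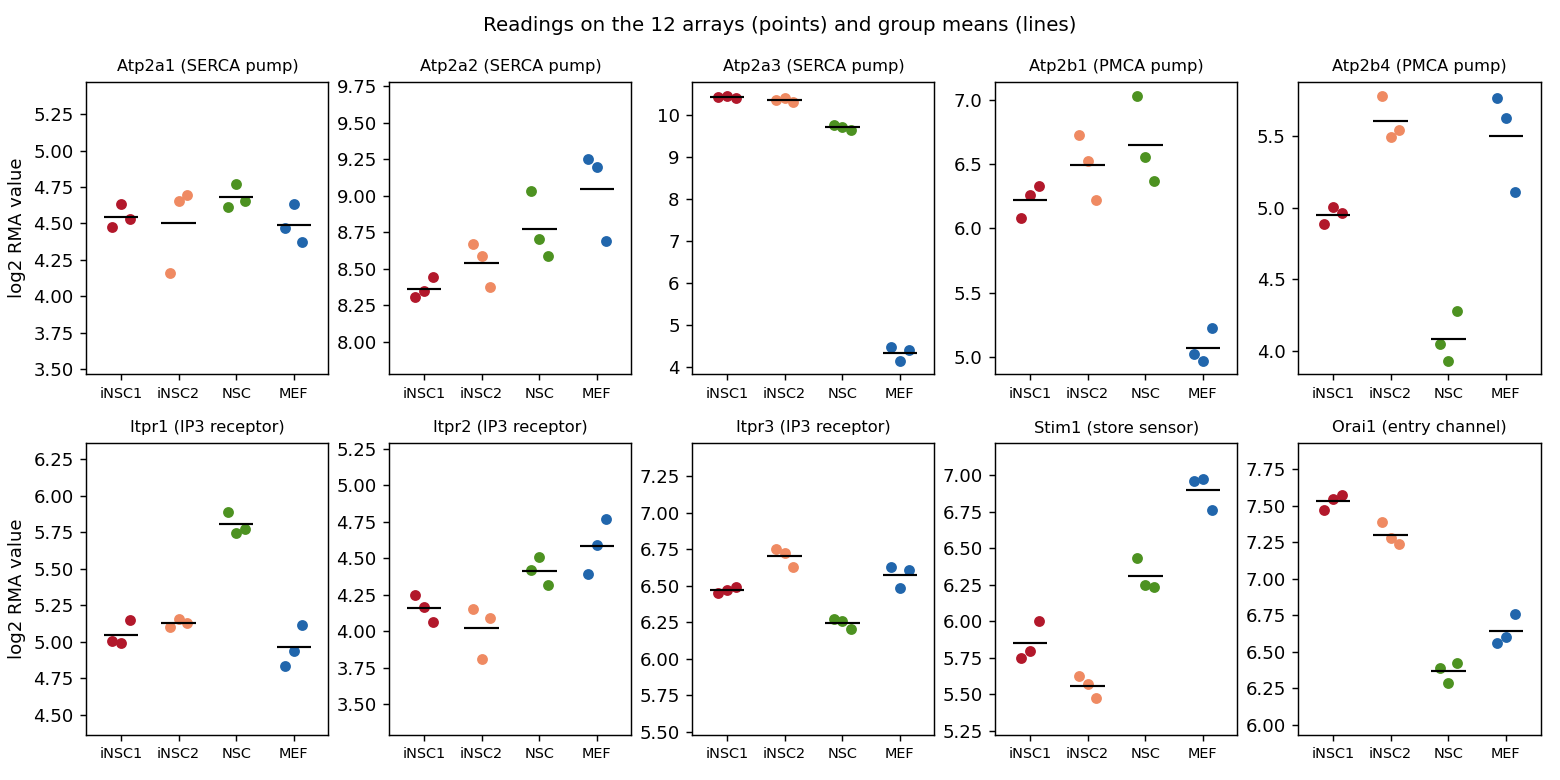
Log2 RMA readings of the 10 genes on the 12 arrays, 1 panel per gene, with a point per array and a line at each group mean; the vertical range differs between panels and spans at least 2 log2 units. Atp2a3 shows the widest step, with group means of 10.44 and 10.37 in iNSC1 and iNSC2, 9.72 in NSC, against 4.35 in MEF, whereas the group means of Atp2a1 lie within 0.189.

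The IP3 receptors differed by less than 2-fold between any pair of groups, and the 3 genes had 3 different patterns. Itpr1 encodes the form that is abundant in Purkinje neurons and present in many other cells (chromosome 6 from 108163112 to 108501104, plus strand). It read 5.01, 4.99 and 5.15 in iNSC1, 5.102, 5.15 and 5.13 in iNSC2, 5.89, 5.75 and 5.78 in NSC, against 4.83, 4.94 and 5.11 in MEF. The NSC arrays lay above all others, which overlapped. The difference was -0.716 ± 0.092 for iNSC minus NSC and 0.843 ± 0.11 for NSC minus MEF, against 0.128 ± 0.092 for iNSC minus MEF, whose interval of -0.068 to 0.32 includes 0.

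Itpr2, the receptor of liver, heart and astrocytes (chromosome 6 from 146059986 to 146450434, minus strand), read 4.06 to 4.25 in iNSC1, 3.81 to 4.16 in iNSC2, 4.32 to 4.51 in NSC, against 4.39 to 4.77 in MEF. These readings lie around the array medians, and all iNSC arrays lay below all NSC and MEF arrays. The iNSC mean differed by -0.495 ± 0.11 from MEF and by -0.327 ± 0.11 from NSC. Itpr3, the receptor of secretory epithelia and taste cells (chromosome 17 from 27194481 to 27259168, plus strand), read 6.45 to 6.495 in iNSC1, 6.63 to 6.75 in iNSC2, 6.204 to 6.28 in NSC, against 6.49 to 6.63 in MEF. Its iNSC minus MEF difference was 0.011 ± 0.075 (-0.15 to 0.17), whereas iNSC exceeded NSC by 0.341 ± 0.075 with no overlap of arrays.

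Stim1 was lowest in iNSC and highest in MEF, and Orai1 was highest in iNSC, so the sensor and its channel differed in opposite directions between iNSC and MEF. Stim1 encodes the calcium sensor of the store (chromosome 7 from 109416320 to 109585381, plus strand). It read 5.75, 5.80 and 6.003 in iNSC1, 5.63, 5.57 and 5.47 in iNSC2, 6.44, 6.25 and 6.24 in NSC, against 6.96, 6.97 and 6.77 in MEF. The 4 groups did not overlap and ran MEF, NSC, iNSC1, iNSC2 from high to low. The difference was -1.198 ± 0.092 for iNSC minus MEF (2.29-fold lower in iNSC; -1.39 to -1.004), -0.605 ± 0.092 for iNSC minus NSC and -0.592 ± 0.11 for NSC minus MEF.

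Orai1 encodes the pore of the entry channel (chromosome 5 from 123465083 to 123480461, plus strand). It read 7.48, 7.55 and 7.58 in iNSC1, 7.39, 7.28 and 7.24 in iNSC2, 6.39, 6.29 and 6.42 in NSC, against 6.56, 6.61 and 6.76 in MEF. Again no arrays of different groups overlapped, with iNSC1 at the top and NSC at the bottom. The iNSC mean exceeded NSC by 1.05 ± 0.077 (2.07-fold; 0.89 to 1.22) and MEF by 0.777 ± 0.077 (1.71-fold), and the NSC minus MEF difference was -0.276 ± 0.089. Orai1 and Atp2b4 were the 2 genes of the 10 whose mean over the iNSC sets was at least 2-fold above NSC. Neither reached 2-fold in both sets. The difference from NSC was 1.167 in iNSC1 and 0.938 in iNSC2 for Orai1, and 0.867 and 1.522 for Atp2b4. Their upstream windows in GRCm38.p6 are shown with capitals as above, Orai1 at chr5:123014824-123015073, plus strand, and Atp2b4 at chr1:133753748-133753997, minus strand, written 5′ to 3′ along the gene.
Orai1: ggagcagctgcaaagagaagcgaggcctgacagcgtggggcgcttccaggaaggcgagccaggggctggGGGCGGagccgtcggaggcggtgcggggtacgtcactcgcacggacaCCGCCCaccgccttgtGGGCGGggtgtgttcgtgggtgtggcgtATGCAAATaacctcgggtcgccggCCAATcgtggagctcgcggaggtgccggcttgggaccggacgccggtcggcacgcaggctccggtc
Atp2b4: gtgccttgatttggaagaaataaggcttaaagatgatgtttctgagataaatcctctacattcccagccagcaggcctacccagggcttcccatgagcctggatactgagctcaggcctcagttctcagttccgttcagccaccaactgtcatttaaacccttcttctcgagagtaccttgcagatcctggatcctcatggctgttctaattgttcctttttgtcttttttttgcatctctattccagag
The Orai1 window held 3 GC boxes, 1 CCAAT box, 1 octamer and 30 CpG pairs, and the Atp2b4 window held 2 CpG pairs and no match to any of the 4 motifs. Itpr3 was the other of 8 genes with a window (Itpr1 and Atp2a2 had none in the table) that held the octamer. These are letters in a window and say nothing of which factor binds.

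**Figure D2:**
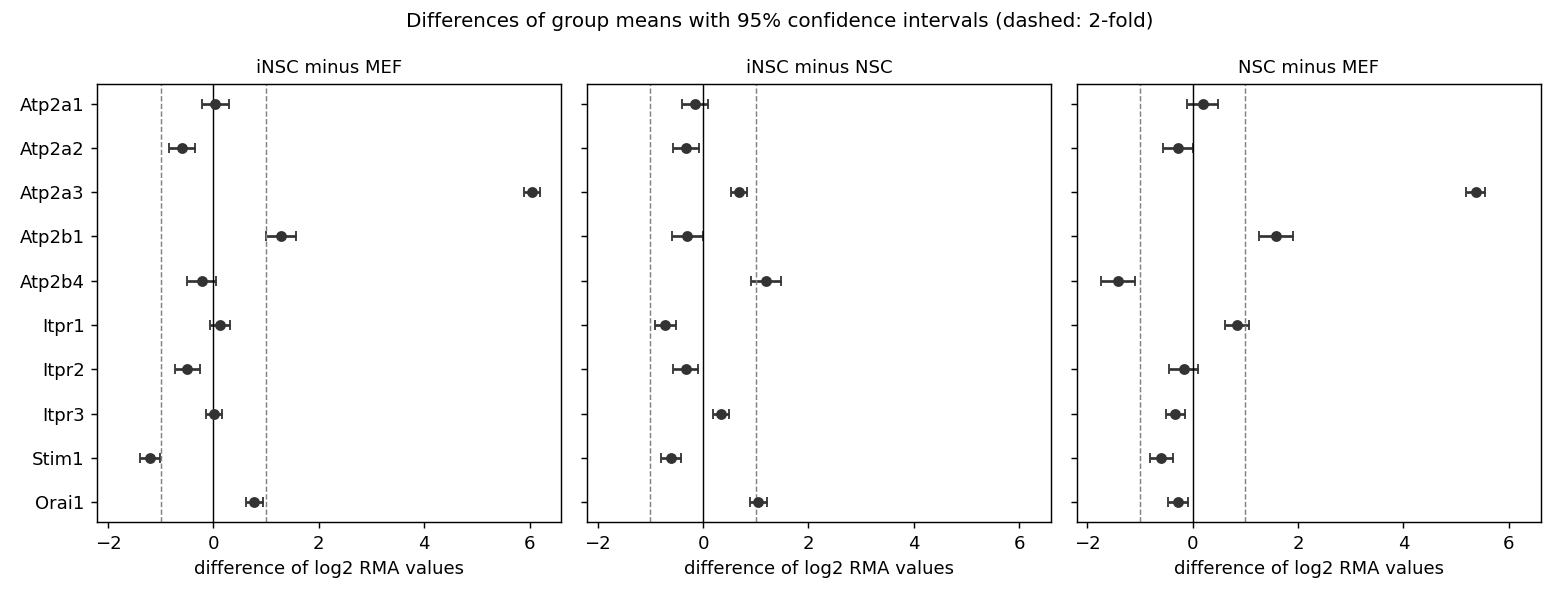
Difference of log2 RMA group means (horizontal axis) for the 10 genes in iNSC minus MEF, iNSC minus NSC and NSC minus MEF, with bars for 95% confidence intervals and dashed lines at a 2-fold difference. Atp2a3 stands at 6.05 and 5.37 against MEF, and Atp2b4 (1.19) and Orai1 (1.05) lie beyond the 2-fold line between iNSC and NSC.

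Counts over the 10 genes are read beside the share of all genes that met the same rule, an adjusted p under 0.05 in limma with at least a 2-fold difference. Between iNSC and MEF, 2 of the 10 were higher (Atp2a3 and Atp2b1) and 1 lower (Stim1), where 8.21% of all genes were called higher and 10.9% lower. Between iNSC and NSC, 2 were higher (Atp2b4 and Orai1) and 0 lower, where 2.91% and 3.65% of all genes were called. In either direction, 9 of the 10 had an unadjusted p under 0.05 in limma, but the share of all genes at that rule was not computed. At an adjusted p under 0.05 without the 2-fold minimum, 8 of the 10 and 6116 of 17103 genes were called. Between NSC and MEF, 2 were higher (Atp2a3 and Atp2b1) and 1 lower (Atp2b4), where 8.72% and 9.96% were called. The comparisons share arrays, and the genes were chosen with these values known, so nothing is read from the counts. The median difference of the 10 genes was 0.023 for iNSC minus MEF, -0.226 for iNSC minus NSC and -0.22 for NSC minus MEF, against 0.061, 0.008 and 0.045 over all genes.

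Between iNSC1 and iNSC2, 0 of the 10 genes met the rule, where 0.0877% of all genes were called higher and 0.0643% lower in iNSC1. At an unadjusted p under 0.05 in limma 4 of them differed, and 1 had an adjusted p under 0.05 in the authors' deposited table. The shares of all genes at these 2 rules were not computed. At an adjusted p under 0.05 in limma without the 2-fold minimum, 1 of the 10 and 393 of 17103 genes were called. The arrays of the 2 sets did not overlap for Atp2b4 (-0.655 ± 0.15, 1.57-fold lower in iNSC1), Itpr3 (-0.229 ± 0.087), Stim1 (0.294 ± 0.11) and Orai1 (0.23 ± 0.089). How many of all genes had no such overlap was not computed. For Atp2a3 the sets overlapped, with a difference of 0.075 (-0.101 to 0.25).

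For the 4 genes with the widest span of group means, the genes most alike over the 12 arrays were found by the root mean square distance of readings after each gene was centred on its own mean. Nearest to Atp2a3 was Stmn2, a microtubule regulator of neurons, at 0.542 log2 units, with means of 10.56 in iNSC1, 10.60 in iNSC2, 9.41 in NSC, against 5.51 in MEF. Cpm, a carboxypeptidase (0.735), and Podxl, a sialomucin (0.737), came next. The distance is not scaled to the span of group means, 6.091 for Atp2a3 and 1.582 for Atp2b1, so it is not compared between members. The neighbours of Atp2b1 were Psme4, a proteasome activator, at 0.091, Qser1 at 0.119 and Pus3, a pseudouridine synthase, at 0.122. Those of Atp2b4 were Sgms1, a sphingomyelin synthase (0.183), Sri, the calcium-binding protein sorcin (0.196), and Ptpn21, a tyrosine phosphatase (0.201). Those of Stim1 were Haus7, a subunit of the augmin complex (0.112), Dcaf6 (0.12) and Adcy6, an adenylyl cyclase (0.123). Arrays of a group share cells and medium, so the distance describes group steps more than 12 independent points.

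The other genes of calcium handling were taken from 9 lists, of which 127 of 148 genes were measured with 1 symbol. Between iNSC and MEF, 6 of them were called higher (4.7%) and 25 lower (19.7%), against 8.21% and 10.9% of all genes, with a median of -0.07. Between iNSC and NSC, 8 were called higher (6.3%) and 3 lower (2.4%), against 2.91% and 3.65% of all genes, with a median of 0.04. The counts of called genes in single lists that follow stand beside the same shares of all genes. For counts at an unadjusted p, here and for the markers, the share of all genes was not computed. As the lists were written with earlier results of these arrays known, their counts and adjusted p-values from limma describe these arrays and test nothing about the lists. Of the other calcium pumps Atp2b2, Atp2b3, Atp2c1 and Atp2c2, limma called 0 between iNSC and MEF, and 3 were higher at an unadjusted p under 0.05. Atp2b2, the plasma membrane pump of neurons and hair cells, came nearest with a difference of 0.58 ± 0.096, and the Golgi pump Atp2c1 differed by -0.10 ± 0.15. Of 7 measured pump regulators, Nptn, a partner of plasma membrane pumps, fell by 1.79 ± 0.14 in iNSC against MEF (adjusted p = 3.53e-09).

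Store calcium buffers were the list with the lowest median between iNSC and MEF, -0.777 over 16 genes, with 0 called higher (1 at an unadjusted p under 0.05 in limma) and 6 lower. The largest falls were Calu (-2.31 ± 0.23, adjusted p = 7.53e-08), Rcn3 (-2.2 ± 0.08, adjusted p = 8.23e-14) and Rcn2 (-2.11 ± 0.14, adjusted p = 3.52e-10), calcium-binding proteins of the secretory pathway. Calr, the main calcium buffer of the store, averaged 10.02 in iNSC1, 10.01 in iNSC2, 10.07 in NSC, against 11.08 in MEF, and fell by 1.07 ± 0.067 in iNSC against MEF (adjusted p = 1.91e-10). Between iNSC and NSC, Rcn1 (1.58 ± 0.12, adjusted p = 8.96e-09) and Rcn3 (1.04 ± 0.08, adjusted p = 8.58e-09) rose and Rcn2 fell (-1.12 ± 0.14, adjusted p = 4.16e-06). Fibroblast markers moved the same way against MEF: 8 of 9 were called lower and 1 higher in iNSC, with array means of 5.06 to 5.18 in iNSC1, 5.09 to 5.13 in iNSC2, 4.40 to 4.55 in NSC, against 9.46 to 9.67 in MEF. The part of fibroblast secretory genes in the buffers' difference was not tested.

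Among the partners of Orai1 and Stim1, 2 of 15 were lower in iNSC than in MEF and 0 higher (5 at an unadjusted p under 0.05 in limma). Orai2, a channel relative, fell by 1.65 ± 0.10 (adjusted p = 1.67e-10) and Saraf, which turns store-operated entry off, fell by 1.32 ± 0.09 (adjusted p = 5.57e-10). Orai2 and Orai1 thus had opposite signs against MEF. Stim2, the relative of Stim1 that senses small losses, differed by -0.58 ± 0.15 and Orai3 by 0.48 ± 0.093, both under 2-fold. Between iNSC and NSC limma called 0 of the 15, with 6 higher and 2 lower before adjustment (p under 0.05).

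Of 23 other release channels and partners, 1 was higher and 5 lower in iNSC than in MEF. Pkd2, the polycystin channel also found in the reticulum (-2.54 ± 0.098, adjusted p = 2.05e-13), Jph2, which tethers the store to the plasma membrane in muscle (-2.22 ± 0.11, adjusted p = 5.28e-12), and Itpripl2, a relative of an IP3 receptor interacting protein (-1.47 ± 0.18, adjusted p = 1.03e-06), fell most. Ryr1, Ryr2 and Ryr3, the ryanodine receptors of muscle and neurons, averaged between 3.39 and 4.52 in every group, around or below the array medians. Between iNSC and NSC, Fkbp1b, a ryanodine receptor partner, rose by 2.07 ± 0.097 (adjusted p = 1.17e-11) and Itpripl1 fell by 1.54 ± 0.087 (adjusted p = 1.41e-10). Fkbp1b read 5.48 to 5.96 on the 6 iNSC arrays, 3.55 to 3.81 in NSC, against 4.52 to 4.66 in MEF.

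Enzymes that make or remove IP3, the ligand of Itpr1, Itpr2 and Itpr3, gave 2 higher and 3 lower of 21 between iNSC and MEF, and 3 higher and 0 lower between iNSC and NSC (limma; 5 lower at an unadjusted p under 0.05). Plcg2, a phospholipase C of blood cells and others, read 6.96 to 7.11 in iNSC1, 6.39 to 6.48 in iNSC2, 4.19 to 4.86 in NSC, against 5.07 to 5.26 in MEF. It rose by 1.56 ± 0.12 against MEF (adjusted p = 2.19e-09) and by 2.24 ± 0.12 against NSC (adjusted p = 5.02e-11). Plcd3 rose by 2.14 ± 0.073 against MEF (adjusted p = 3.88e-14). Plcd1, its relative, lay between the others, -1.59 ± 0.092 from MEF (adjusted p = 5.62e-11) and 1.20 ± 0.092 from NSC (adjusted p = 8.8e-09). Inpp5a, which removes a phosphate from IP3, also lay between them, -1.26 ± 0.087 from MEF (adjusted p = 7.08e-10) and 1.08 ± 0.087 from NSC (adjusted p = 1.84e-08).

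**Figure D3:**
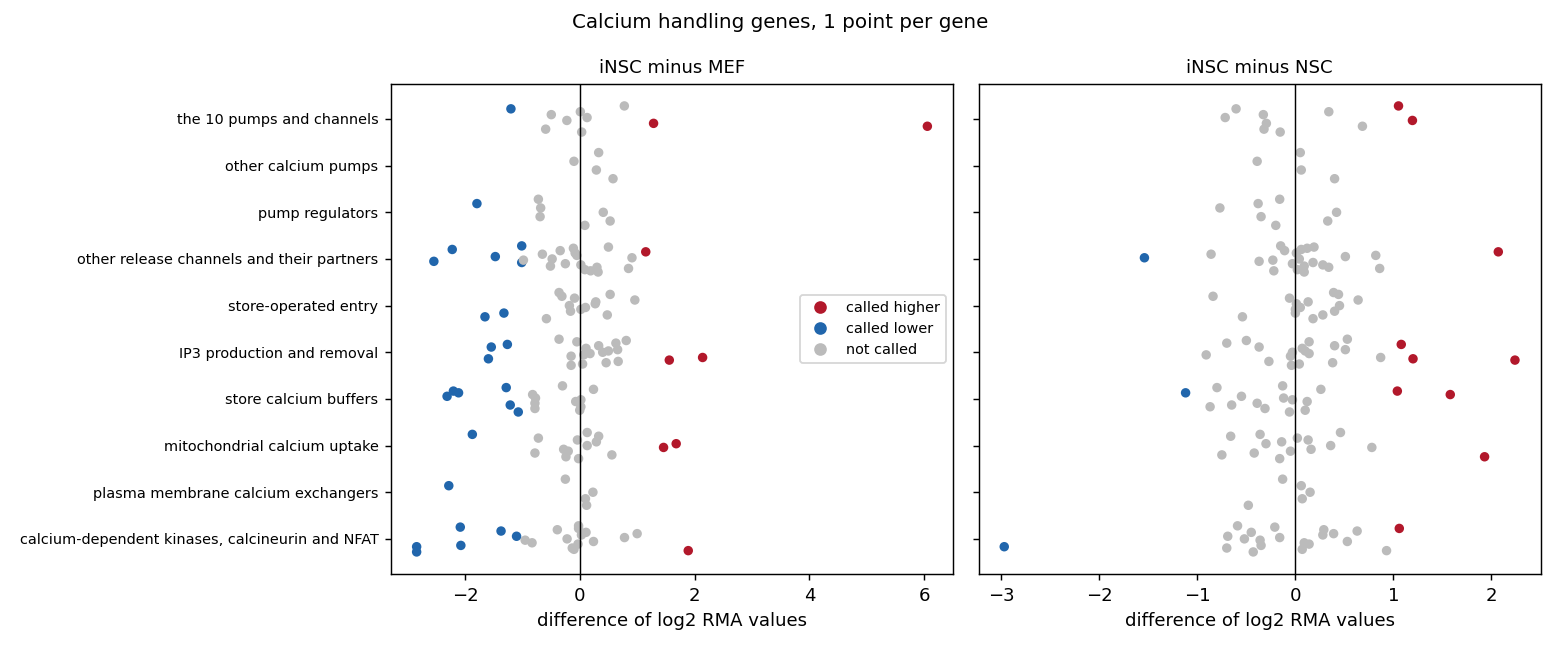
Difference of log2 RMA group means for the 10 pumps and channels and for 9 lists of other calcium handling genes, 1 point per gene, in iNSC minus MEF (left) and iNSC minus NSC (right), coloured by whether the gene was called. Atp2a3 at 6.05 lies to the right of every gene of the lists, and the points called lower against MEF number 25 of 127 in the lists.

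Mitochondrial uptake genes gave 2 higher and 1 lower of 15 between iNSC and MEF: Slc8b1, the mitochondrial sodium-calcium exchanger (1.68 ± 0.08, adjusted p = 4.3e-12), Mcur1 (1.46 ± 0.10, adjusted p = 7.74e-10) and Slc25a24, a carrier of ATP-Mg that calcium regulates (-1.87 ± 0.18, adjusted p = 7.59e-08). Mcub, the inhibitory subunit of the uniporter, rose by 1.93 ± 0.093 against NSC (adjusted p = 1.71e-11). Of 5 exchangers of the plasma membrane, Slc24a3 was lower than in MEF (-2.28 ± 0.13, adjusted p = 4.77e-11) and limma called 0 higher (0 at an unadjusted p under 0.05). Among 21 calcium-dependent kinases, calcineurin and NFAT genes, 1 was higher and 6 lower than in MEF. Camk1 fell by 2.84 ± 0.096 (adjusted p = 3.45e-14), and Rcan2, a calcineurin inhibitor, fell by 2.08 ± 0.11 (adjusted p = 1.37e-11). Camk2d, a kinase switched on by calmodulin, fell by 2.84 ± 0.17 against MEF (adjusted p = 7.23e-11) and fell by 2.97 ± 0.17 against NSC (adjusted p = 1.37e-10). It read 4.11 to 4.89 on the 6 iNSC arrays, 7.19 to 7.85 in NSC, against 7.07 to 7.55 in MEF, so that NSC and MEF overlapped. Rcan1, a calcineurin regulator, rose by 1.06 ± 0.07 in iNSC against NSC (adjusted p = 1.26e-09).

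Markers of several cell types were set beside Atp2a3. Of the cells named above as its known sources, lymphocytes, platelets and epithelia had marker lists, and endothelium had none. Lymphoid and platelet markers, 7 of 11 measured, averaged 4.18 to 4.32 over the iNSC arrays, 4.09 to 4.35 in NSC, against 4.18 to 4.26 in MEF, with 0 called by limma in either direction between iNSC and MEF (before adjustment, 2 were higher and 1 lower at p under 0.05). Macrophage markers ran against Atp2a3, with 8 of 10 called lower in iNSC than in MEF and array means of 3.58 to 3.77 in iNSC, 3.64 to 3.69 in NSC, against 6.51 to 6.86 in MEF. Epithelial markers moved with it in part: 4 of 10 were called higher in iNSC than in MEF, with array means of 5.26 to 5.53 in iNSC, 4.79 to 4.87 in NSC, against 4.39 to 4.41 in MEF, although Epcam and Cdh1 differed by 0.29 and 0.47. Of 10 pluripotency markers 8 were measured, without Nanog and Zfp42. Of these 8, 6 were called higher, with array means of 6.93 to 7.32 in iNSC, 6.85 to 6.95 in NSC, against 3.97 to 4.02 in MEF. Pou5f1, read near 13 in iNSC, is in these means. Of 9 neuron markers 2 were called higher, Stmn2 among them, with array means of 5.57 to 5.65 in iNSC, 4.91 to 5.06 in NSC, against 4.56 to 4.71 in MEF. The part of these cell types in the reading of Atp2a3 was not tested.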

How the data were processed

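The deposited log2 values of the 12 arrays were made by the authors with RMA; per the submitters' processing notes the software was Affymetrix Power Tools, and neither its version nor a genome build is given in the sources used here. Per the file headers, another deposited table holds gene symbols, log2 ratios of group means and adjusted p-values from a test it does not name. Its per-array columns equal the main values where their names match a sample title (9 columns), and 3 others were not used.

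Of 28815 probe sets, the authors' table with symbols listed 21774, whose highest group mean (iNSC sets averaged) was 3.0003 or more. The unlisted ones reached at most 2.9998, so probe sets with the lowest readings are missing from the shares of all genes. Of those listed, 18403 had 1 symbol, updated through the Entrez identifier where RefSeq held it (17520), and the probe set with the highest mean was kept for each of 17103 genes. limma 3.58.1 in R 4.3.3 was fitted to all 12 arrays with 1 mean per group (eBayes with trend, two-sided, Benjamini-Hochberg adjustment over all genes; 8 residual degrees of freedom), after the script was tested on simulated data. The iNSC value is the mean of the iNSC1 and iNSC2 means. The 10 genes, the 9 pathway lists, the 8 marker lists and the naming rule were chosen with earlier results of these data known. Named are the 10 genes, label checks, the 3 largest called differences per list against MEF and against NSC, and the 3 genes most alike to each of 4 members; Calr, Atp2b2, Atp2b3, Atp2c1, Atp2c2, Stim2, Orai3, Ryr1, Ryr2, Ryr3, Pax6, Sox1, Olig2, Acta1, Epcam and Cdh1 were named after their values were seen. Nanog and Zfp42 are named only as not measured with 1 symbol. Having 3 arrays per group limits the precision. Upstream windows are RefSeq's, found for 8 of the 10 genes. Alternatives covered the fold minimum, low values, probe set choice, centring, spread, replicate block and single arrays.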

Additional observations from a re-analysis of the deposited data

Results flagged for a closer look

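Atp2b4 was singled out because it was the 1 gene of the 10 that differed between the 2 iNSC sets after adjustment over all genes, by -0.655 ± 0.15 (iNSC1 minus iNSC2, SE, n = 3 and 3 arrays), which is less than 2-fold. The genes were chosen with their readings known, so this is a description. The difference from NSC was 0.867 for iNSC1 and 1.52 for iNSC2, and the difference from MEF -0.552 and 0.103. No array of one set overlapped the other, and with each array left out in turn the difference between the sets ran from -0.712 to -0.566.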

How the results depend on the processing

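The counts of genes called depend mainly on the 2-fold minimum. Without it, limma called 9558 genes between iNSC and MEF (3262 with it), 6116 between iNSC and NSC (1121), 8872 between NSC and MEF (3195) and 393 between iNSC1 and iNSC2 (26); of the 10 pumps and channels 6, 8, 7 and 1 were then called, against 3, 2, 3 and 0. With genes whose highest group mean was at least 6, 6 of the 10 remained, 1 was called between iNSC and NSC and 2 between NSC and MEF, since Atp2b4, called in both, lies below that minimum. Leaving out each array in turn gave 3202 to 3425, 1078 to 1212, 3108 to 3295 and 21 to 34 called genes, and 3, 2, 3 and 0 of the 10. A replicate block gave 3458, 1121, 3319 and 27 and kept 3, 2, 3 and 0 of the 10; same-numbered arrays deviated together with correlations of -0.18 to 0.28 over 15 pairs, 6 of them above 0.1, so the numbers were not taken to pair arrays, and MEF replicate 5 has a number of its own. Array centring, probe set means, no trend, the arrays of the comparison alone and the authors' adjusted p and ratio (not run for iNSC1 against iNSC2, whose ratios are rounded to whole numbers) kept every count of the 10. Of these settings only centring could alter the differences of the 10 genes. Probe set means could not, as each gene has 1 probe set. The others keep the same differences, to rounding, and alter the adjusted p alone, so the kept counts say little. Leaving out an array could not alter a comparison that does not use it, and the replicate block left iNSC minus NSC and iNSC1 minus iNSC2 as they were. With such unchanged values counted, all 600 recomputed differences of the 10 genes moved by less than the largest SD within a group. Of these, 8 changed sign, all of 3 differences of at most 0.041 in size that were not called: Atp2a1 for iNSC minus MEF (down to -0.08 with the block) and for iNSC1 minus iNSC2 (down to -0.13), and Itpr3 for iNSC minus MEF (down to -0.033). Signal limits Atp2a1, Itpr2 and the lowest readings of Atp2a3 and Atp2b4, which lie near the array medians.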

Other observations

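Within groups, Atp2a2 and Atp2b1 varied together from array to array in 3 of the 4 groups. In iNSC2, replicate 1 was highest and replicate 3 lowest for both (8.67 and 8.37 for Atp2a2, 6.73 and 6.22 for Atp2b1), and the same holds in NSC (9.03 and 8.59, 7.04 and 6.37). In iNSC1 replicate 3 was highest and replicate 1 lowest for both (8.44 and 8.302, 6.33 and 6.08), whereas in MEF the 2 genes had different arrays at the top. This order was not particular to the pair. Camk2d had the same highest and lowest arrays in these 3 groups, while Jph2 did not. The pair was picked after the values were seen, and with 3 arrays per group few orders are possible. MEF replicate 5 read lowest in its group for Atp2a1 (4.37), Atp2a2 (8.69), Atp2b4 (5.11) and Stim1 (6.77). It read highest for Atp2b1 (5.23), Itpr1 (5.11), Itpr2 (4.77) and Orai1 (6.76). Among genes of the lists it was far below the other MEF arrays for some, such as Calu (8.75, against 10.04 and 10.11), Rcn2 (8.75, against 9.43 and 9.35) and Nptn (8.40, against 9.25 and 9.06). For others, such as Rcn3 and Jph2, it was the highest.

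Of the 127 other calcium handling genes, 1 was called between the iNSC sets: Nfatc1, a transcription factor that calcineurin activates, averaged 5.82 in iNSC1 and 4.65 in iNSC2, a difference of 1.17, with 4.96 in NSC and 5.21 in MEF. It was named after its value was seen.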
